A study of Mus musculus with 16 samples.

Results

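Deletion of Vhl can change a kidney transcript by one amount in an undamaged organ and by another in a damaged one. The quantity described here is that difference: for each gene, the change from AKI to VHL-KO/AKI minus the change from Control to VHL-KO, called the interaction, in log2 units. An interaction below 0 means that deletion raised the transcript less, or lowered it more, in injured than in uninjured kidneys. All 16 arrays of the series entered it, and it was formed for each of 19938 genes that had a table row with a single symbol.

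RNA came from halved mouse kidneys, with 3 Control, 3 VHL-KO, 5 AKI and 5 VHL-KO/AKI arrays from mice of 24 to 31 g, labelled as biological replicates. Every mouse belonged to a transgenic line in which doxycycline removes Vhl from renal tubules. The study cited for that line names Pax8-rtTA as its driver and liver beside kidney as a site of its action. Control mice were untreated. VHL-KO mice were given doxycycline under the skin at 0.1 mg per 10 g, with 4 days between dose and death. AKI mice, without doxycycline, had rhabdomyolysis and so acute kidney injury brought on by 50% glycerol at 0.05 ml per 10 g in the left leg muscle, with water withdrawn from 20 h before to 24 h after. VHL-KO/AKI mice received doxycycline and the glycerol with water withdrawal. The genotype label reads wild type for Control and AKI and VHL-KO for the other 2 groups. No group received doxycycline without the deletion or water withdrawal without glycerol, so these cannot be told apart from deletion and injury. In whole tissue, fewer cells of a type and less RNA per cell cannot be told apart either.

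Vhl encodes the substrate-binding part of the ubiquitin ligase that tags hypoxia-inducible factors (HIF) for destruction after prolyl hydroxylases have modified them in the presence of oxygen. Without it, HIF accumulates in oxygenated cells and raises genes of glycolysis, lactate export, mitophagy, vascular signalling and collagen modification. Muscle breakdown releases myoglobin, whose haem reaches the tubule, and haem oxygenase 1, the product of Hmox1, degrades it. Damaged tubules lose transport proteins and switch on injury and immediate early genes.

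The targeted gene was low under both conditions. The Vhl level was 7.03, 7.05 and 7.10 in Control arrays and 6.70, 6.62 and 6.64 in VHL-KO arrays. It was 7.16, 7.12, 7.17, 7.01 and 7.36 in AKI arrays and 6.41, 6.35, 6.52, 6.66 and 6.54 in VHL-KO/AKI arrays. Each deleted array lay below every array with intact Vhl, and the interaction was -0.26 (SE 0.110), with a limma adjusted p of 0.369. Kidney identity was evident in the mean of 19 proximal tubule markers, which lay between 10.57 and 12.27 on the log2 scale in all arrays.

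Some arrays stood apart from their groups. AKI 4 lay at 5.8 on the first principal component, whereas the other AKI arrays lay between 36.5 and 42.8. Its mean of 16 tubular injury markers was 8.99 against 9.85 to 10.16 in the other AKI arrays, and its mean of 35 HIF target genes was 8.50 against 7.85 to 7.99. VHL-KO/AKI 5 lay at 32.1 on the first component, against -1.0 to 20.5 in the other VHL-KO/AKI arrays. Its mean of thick ascending limb markers was 9.03 against 9.81 to 10.30. Control 3 had a mean level of Uty, Eif2s3y and Kdm5d, all on the Y chromosome, of 7.43 against 4.81 to 5.01 in the other 5 uninjured arrays, together with an Xist level of 10.23. Whether that array holds RNA of 1 mouse or of several was not tested, and every value set against Control includes it unless stated. The labels give mice of both sexes. In these data Xist was 10.23 to 11.47 in uninjured arrays and 4.16 to 5.08 in injured arrays, and the Y-linked mean was 7.77 to 8.26 in all injured arrays. A difference between injured and uninjured kidneys, here called injury, therefore cannot be told apart from one of sex-linked signal. Nor can an interaction of deletion with injury be told apart from one of deletion with sex-linked signal. Results are given with and without AKI 4 where that array moved them, and for some genes and lists without Control 3 as well. Most interactions called without AKI 4 were not called when Control 3 was left out as well. Results without VHL-KO/AKI 5 are given as counts of calls only.

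Few genes passed the test of the interaction with all arrays. At a limma adjusted p under 0.05, 2 of 19938 genes were called lower (0.01%) and 0 higher (0%), although 2387 genes had an unadjusted p under 0.05 (12%), of which 1568 lay below 0 (7.86%) and 819 above (4.11%). By the same rule deletion was called in 105 genes in uninjured kidneys (0.527%), with 95 higher (0.476%) and 10 lower (0.0502%), and in 774 genes in injured kidneys (3.88%), with 495 higher and 279 lower. Injury was called in 28.1% of genes with intact Vhl and in 13.6% in deleted kidneys. The interaction count depended on single arrays. Without AKI 4 it was 620 genes (3.11%), with 293 higher (1.47%) and 327 lower (1.64%), and without VHL-KO/AKI 5 it was 206 (1.03%). Without AKI 2 it was 21 and without VHL-KO 2 it was 9. Leaving out any one of the other 12 arrays gave 0 or 1 called genes, and 0 (0%) without Control 3, where 1877 had an unadjusted p under 0.05. Without Control 3 and AKI 4 together 22 genes were called (0.11%), 11 in each direction.

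**Figure D1:**
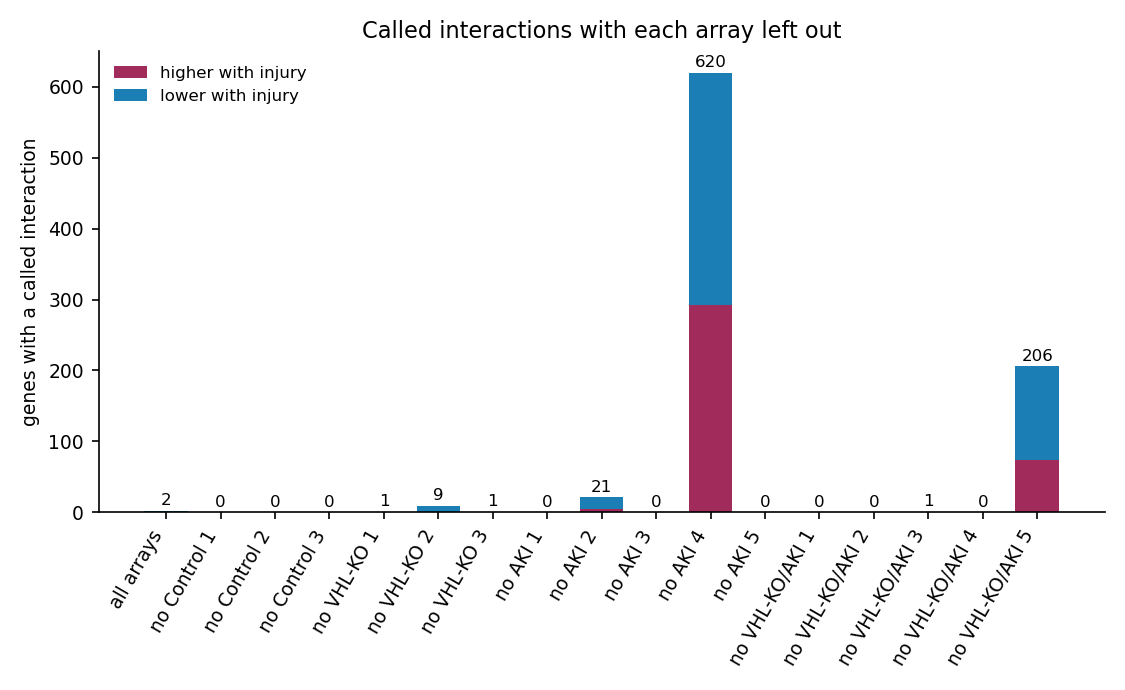
Number of genes with a called interaction (vertical axis) with all 16 arrays and with each array left out in turn (horizontal axis); bars are split into genes higher and lower with injury. The count is 2 with all arrays, 620 without AKI 4 and 206 without VHL-KO/AKI 5.

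Both called genes rose on deletion in uninjured kidneys and did not rise on deletion in injured ones. Hmox1 had levels of 7.28, 7.75 and 7.66 in Control, 9.68, 9.39 and 9.93 in VHL-KO, 11.79, 11.76, 12.34, 12.85 and 12.09 in AKI, and 10.43, 10.83, 10.45, 11.20 and 12.01 in VHL-KO/AKI. All VHL-KO arrays were above all Control arrays, while 4 of 5 VHL-KO/AKI arrays were below every AKI array. Deletion raised Hmox1 4.30-fold without injury (log2 difference 2.11, SE 0.358, limma adjusted p = 0.0148). With injury Hmox1 fell by 1.18 log2 units (SE 0.277, limma adjusted p = 0.0312). The interaction was -3.29 (95% interval -4.25 to -2.32, limma adjusted p = 0.0466). Read the other way round, Hmox1 was 24.4-fold higher in injured than in uninjured kidneys with intact Vhl and 2.50-fold higher in deleted kidneys. Hmox1 was the only gene called in both deletion comparisons in opposite directions.

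Myc, a transcription factor of growth and proliferation that is also induced in damaged tubules, had levels of 6.94, 6.59 and 6.49 in Control and 8.36, 7.66 and 8.73 in VHL-KO. It had 9.73, 10.20, 9.66, 9.65 and 10.07 in AKI and 9.32, 9.37, 9.21, 9.48 and 9.72 in VHL-KO/AKI. The uninjured groups did not overlap, and the injured groups overlapped in part. The deletion difference was 1.58 without injury (limma adjusted p = 0.00467) and -0.44 with it (limma adjusted p = 0.188), and the interaction was -2.02 (95% interval -2.64 to -1.40, limma adjusted p = 0.0466).

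The size of both interactions changed little without Control 3 or AKI 4, but the call did not hold throughout. Without AKI 4 the values were -3.11 for Hmox1 (limma adjusted p = 0.00833) and -2.07 for Myc (0.0100). Without Control 3 they were -3.33 and -1.93, both with an adjusted p of 0.183. Without both arrays they were -3.16 (0.0333) and -1.98 (0.0482). The call was also lost with every row tested (limma adjusted p = 0.0508 for both genes). It was lost too under median centring, quantile or cyclic loess scaling (limma adjusted p between 0.0552 and 0.0862) and with a sex-linked covariate (0.174 for both genes). That covariate, Xist minus the Y-linked mean, varied within groups mainly through Control 3, so it is not a check separate from leaving that array out.

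**Figure D2:**
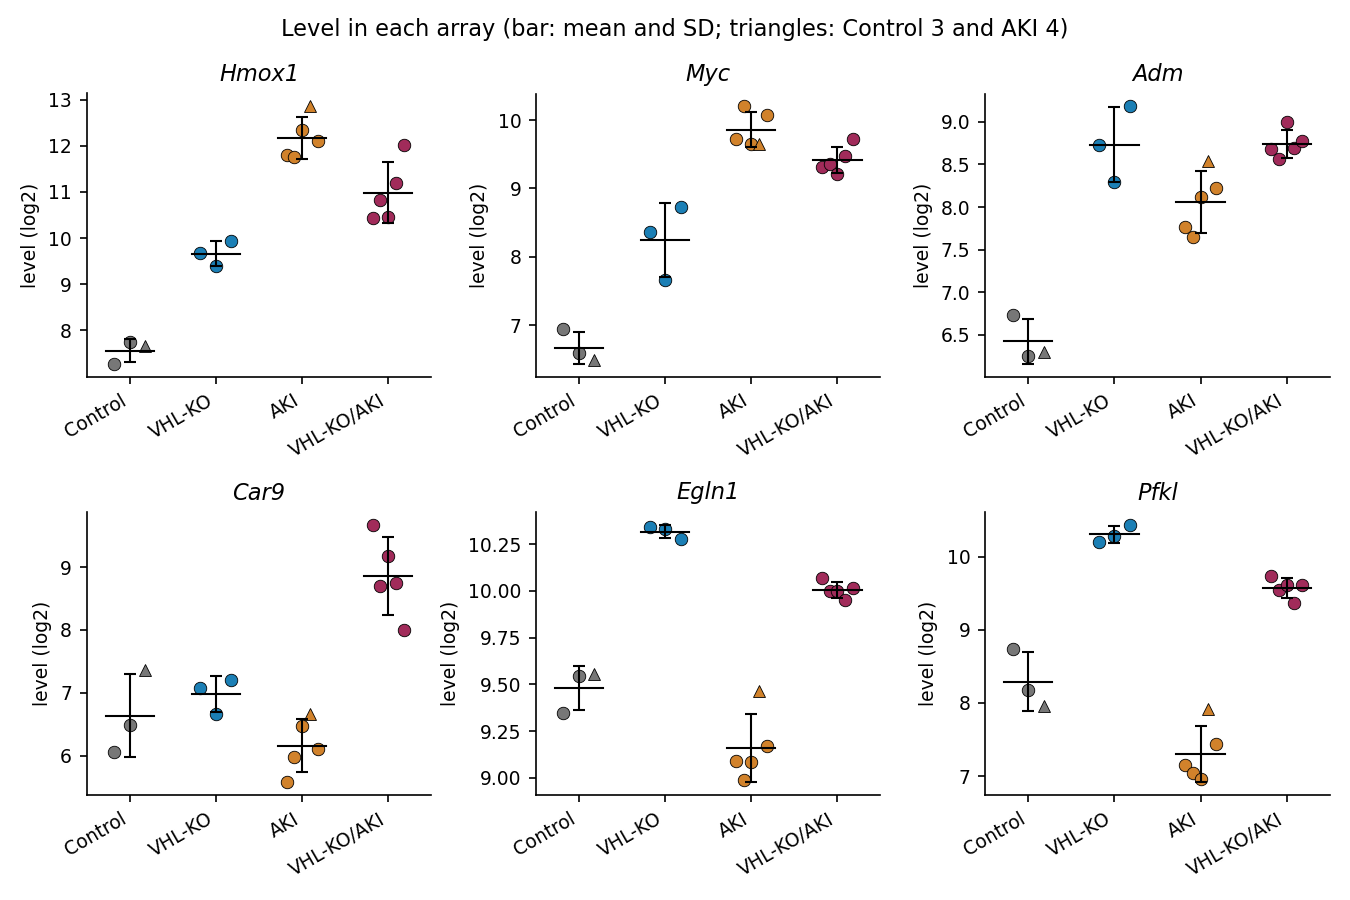
Level on the log2 scale (vertical axis) of Hmox1, Myc, Adm, Car9, Egln1 and Pfkl in each array of the 4 groups (horizontal axis); bars give mean and SD, and triangles mark Control 3 and AKI 4. Hmox1 is higher in VHL-KO than in Control (mean 9.67 against 7.56) and lower in VHL-KO/AKI than in AKI (10.99 against 12.17), whereas Egln1 and Pfkl are higher on deletion with and without injury.

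Most genes called on deletion in uninjured kidneys had a difference of the same sign in injured ones. The 2 deletion comparisons share no array, but both use the same estimate of each gene's spread, so calls in the 2 are not independent. Of the 105 genes called without injury, 80 (76.2%) had the same sign with injury, beside 51.2% of all 19938 genes. Of the 105, 49 were also called with injury (46.7%), beside 3.88% of all genes called there. Of these 49, 45 were higher in both comparisons, 3 were lower in both, and Hmox1 was opposite. Across the 48 genes of equal direction the median deletion difference was 1.01 without injury and 0.81 with it. Their interactions ran from -1.63 (Adm) to 0.77 (Apoc3), 31 lay within 0.5 of 0, and 30 were below 0. Without AKI 4, 7 of the 48 had a called interaction, beside 3.11% of all genes: Adm, Bmt2, Bnip3, Gys1, Igsf3, P4ha1 and Plod2. Over all genes tested, the Pearson correlation of the 2 deletion differences was 0.132, and 0.0547 without AKI 4, a description across genes, which are not independent.

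The reverse view differed between rising and falling genes. Of 495 genes called higher on deletion in injured kidneys (2.48%), 371 (74.9%) also lay above 0 in uninjured kidneys, beside 57.4% of all genes. Of 279 genes called lower there (1.4%), 84 (30.1%) lay below 0 in uninjured kidneys, beside 42.6% of all genes, and 3 were called lower in both. The difference between the 2 shares was not tested.

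**Figure D3:**
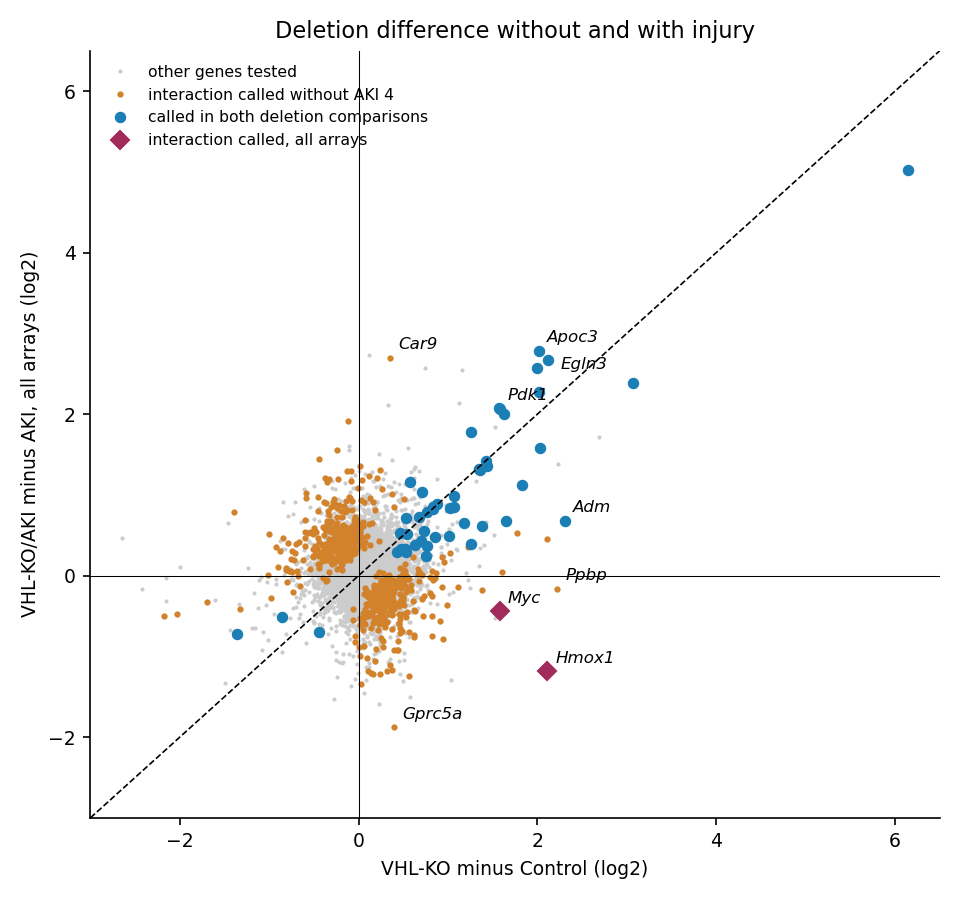
Deletion difference with injury (VHL-KO/AKI minus AKI, log2, vertical axis) against that without injury (VHL-KO minus Control, log2, horizontal axis) for each gene; the dashed line marks equal differences. Of the genes called in both comparisons, Hmox1 alone has opposite signs (2.11 without and -1.18 with injury), and Adm lies well below the line (2.31 and 0.68).

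HIF target and glycolysis genes were among those raised under both conditions. Of 35 HIF targets measured, deletion raised 11 in uninjured and 16 in injured kidneys, beside 0.476% and 2.48% of all genes. The list medians were 0.49 and 0.43 beside 0.02 and -0.01 over all genes. Of 22 glycolysis and lactate genes measured, 7 and 11 rose, with medians of 0.60 and 0.49. In neither list did limma call an interaction with all arrays (0 genes, with 6 HIF targets and 2 glycolysis genes at an unadjusted p under 0.05), and the median interactions were -0.19 and -0.00 beside -0.02 over all genes. Without AKI 4, 5 of the 35 HIF targets had a called interaction, 3 higher and 2 lower, beside 1.47% and 1.64% of all genes. The list median was then -0.06. Leaving out Control 3 as well gave 0 called interactions in this list and a median of -0.04.

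Egln1 encodes PHD2, the main prolyl hydroxylase that marks HIF, and is itself a HIF target. Its level was 9.35, 9.54 and 9.55 in Control, 10.34, 10.33 and 10.28 in VHL-KO, 9.09, 8.99, 9.09, 9.46 and 9.17 in AKI, and 10.07, 10.00, 10.00, 9.95 and 10.02 in VHL-KO/AKI. Every deleted array was above every intact one at each condition. The deletion difference was 0.84 without and 0.85 with injury, so the interaction was 0.01 (95% interval -0.25 to 0.28). Egln1, and Pgk1, Ldha and Pfkp below, were named for a small interaction relative to their deletion difference. That the interactions of these genes lie near 0 was therefore set by the choice.

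Pgk1, phosphoglycerate kinase of glycolysis, ran from 11.53 to 11.58 in Control, 12.27 to 12.50 in VHL-KO, 11.20 to 11.55 in AKI and 12.05 to 12.36 in VHL-KO/AKI. Its deletion difference was 0.83 under both conditions, and the interval of the interaction was -0.28 to 0.27. Ldha, which makes lactate from pyruvate, differed by 0.76 without and 0.79 with injury. The phosphofructokinase genes Pfkp and Pfkl differed by 1.42 and 2.02 without injury and by 1.42 and 2.27 with it. In each of these genes the deleted arrays did not overlap the intact ones at either condition. Pfkl, the liver-type subunit, was also lower in injured than in uninjured kidneys, by 0.99 with intact Vhl (limma adjusted p = 0.00169) and by 0.73 in deleted kidneys (0.0219), so the deletion difference stood on a lower base.

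Several HIF and glycolysis genes had larger deletion differences in injured than in uninjured kidneys without passing the test. Egln3, the hydroxylase PHD3, differed by 2.11 and 2.67, Pdk1, a kinase gene whose product inhibits pyruvate dehydrogenase, by 1.57 and 2.07, and the lactate exporter Slc16a3 by 1.63 and 2.00. The mitophagy receptor Bnip3 differed by 1.26 and 1.78. The interactions were 0.55, 0.51, 0.38 and 0.52, with limma adjusted p from 0.481 to 0.715. As differences of linear levels those of Egln3 and Pdk1 turned to -20.8 and -128, so their direction depended on the scale. Without AKI 4 the Bnip3 interaction was 0.73 (limma adjusted p = 0.0294). In AKI 4 itself Bnip3 stood at 11.55, while the other AKI arrays lay between 10.20 and 10.70.

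Adm and Car9 were the HIF targets with the largest interactions, in opposite directions. Adm encodes adrenomedullin, a vasodilator peptide. Its level was 6.73, 6.25 and 6.30 in Control, 8.73, 8.29 and 9.18 in VHL-KO, 7.76, 7.65, 8.11, 8.54 and 8.23 in AKI, and 8.68, 8.56, 9.0, 8.69 and 8.77 in VHL-KO/AKI. Deleted arrays were high with or without injury. The AKI arrays lay above every Control and below every VHL-KO/AKI array, and only AKI 4 reached into the range of VHL-KO. The deletion difference was 2.31 without injury (limma adjusted p = 0.00031) and 0.68 with it (0.0496). The interaction was -1.63 (95% interval -2.25 to -1.0), with a limma adjusted p of 0.0791 with all arrays, 0.0206 without AKI 4, 0.189 without Control 3 and 0.0591 without both. Adm was higher by 1.63 in AKI than in Control (limma adjusted p = 7.38e-05), and the injury difference in deleted kidneys was 0.01 (0.991).

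Car9 encodes carbonic anhydrase 9, a membrane enzyme that hydrates carbon dioxide. Its level was 6.06, 6.49 and 7.35 in Control, 7.08, 6.66 and 7.21 in VHL-KO, 5.58, 5.97, 6.46, 6.66 and 6.11 in AKI, and 9.67, 8.69, 9.18, 8.74 and 8.0 in VHL-KO/AKI. The uninjured groups overlapped through Control 3 alone, and all deleted injured arrays were above all other arrays of the series. The deletion difference was 0.35 without injury (limma adjusted p = 0.908; 0.71 without Control 3, with 0.840) and 2.70 with it (0.000216). The interaction was 2.35 (95% interval 1.30 to 3.40), with a limma adjusted p of 0.0957 with all arrays, 0.0255 without AKI 4, 0.241 without Control 3 (interaction 1.99) and 0.0650 without both (2.12).

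Other genes of collagen modification, named after their values were seen, also had smaller deletion differences with injury, but not by the same route as Adm. P4ha1, a collagen prolyl hydroxylase subunit, differed on deletion by 1.38 without and 0.62 with injury (interaction -0.77, limma adjusted p = 0.130, and 0.0468 without AKI 4). It lay at 8.63 to 9.01 in Control and 8.57 to 8.94 in AKI, and at 10.08 to 10.34 in VHL-KO and 9.16 to 9.77 in VHL-KO/AKI, so the level with intact Vhl was alike and the deleted level was lower with injury. P4ha2, another such subunit, differed by 0.69 and 0.43 (interaction -0.27, limma adjusted p = 0.612). The lysyl hydroxylase gene Plod2, among the 48 genes called in both comparisons, differed by 1.65 and 0.68, with an adjusted p of the interaction of 0.144 with all arrays and 0.0172 without AKI 4.

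The start regions of these genes were compared because HIF binds a short core, ACGTG or GCGTG. RefSeq promoter windows (250 bases before to 50 after the start, GRCm38.p6, each on the strand of its gene) follow for Adm and Car9, the HIF targets with the largest interactions, and for Pgk1 and Egln1, with interactions near 0. Capitals mark the core on either strand.
Adm promoter, chr7:110627407-110627706, plus strand: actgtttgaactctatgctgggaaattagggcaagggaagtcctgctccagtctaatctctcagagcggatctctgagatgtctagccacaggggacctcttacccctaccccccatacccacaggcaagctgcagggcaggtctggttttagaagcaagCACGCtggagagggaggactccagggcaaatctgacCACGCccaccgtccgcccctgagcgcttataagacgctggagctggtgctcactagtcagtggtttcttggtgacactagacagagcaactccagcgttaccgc
Car9 promoter, chr4:43506776-43507075, plus strand: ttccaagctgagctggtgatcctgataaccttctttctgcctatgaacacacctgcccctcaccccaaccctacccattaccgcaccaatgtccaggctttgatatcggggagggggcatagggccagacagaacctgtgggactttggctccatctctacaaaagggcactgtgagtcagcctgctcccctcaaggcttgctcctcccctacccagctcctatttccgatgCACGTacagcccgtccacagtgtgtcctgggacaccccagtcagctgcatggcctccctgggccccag
Pgk1 promoter, chrX:106186850-106187149, plus strand: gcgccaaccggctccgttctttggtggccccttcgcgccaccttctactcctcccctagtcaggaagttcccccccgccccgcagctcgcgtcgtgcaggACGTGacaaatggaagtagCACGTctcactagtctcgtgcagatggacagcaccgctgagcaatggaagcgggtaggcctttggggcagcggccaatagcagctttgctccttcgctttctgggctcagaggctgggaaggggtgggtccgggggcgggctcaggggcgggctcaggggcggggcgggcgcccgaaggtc
Egln1 promoter, chr8:124949205-124949504, minus strand: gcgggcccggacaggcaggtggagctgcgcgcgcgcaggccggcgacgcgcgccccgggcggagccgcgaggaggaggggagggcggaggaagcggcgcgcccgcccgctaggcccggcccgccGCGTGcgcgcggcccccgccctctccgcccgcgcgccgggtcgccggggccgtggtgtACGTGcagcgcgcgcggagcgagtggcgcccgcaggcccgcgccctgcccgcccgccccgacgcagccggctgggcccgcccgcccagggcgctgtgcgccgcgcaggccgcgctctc
The windows of Adm, Pgk1 and Egln1 hold 2 matches each and that of Car9 holds 1, so the core was present in all 4 windows. Matches were also counted per gene, in any promoter of the gene. Of the genes called in both comparisons in one direction, 28 of 37 with a promoter (75.7%) had at least 1. Counted alike, the share was 55.3% of 15614 genes tested. For interactions called without AKI 4 it was 67.9% of 249 genes called lower and 63.8% of 243 called higher. Of the genes tested, 2637 had more than 1 promoter. Counted per promoter, a different unit, the share was 43.8% of 32851. Differences between these shares were not tested. A match describes letters in this window and is no evidence of binding.

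Beyond HIF targets, the genes closest to the threshold included several that deletion raised in uninjured kidneys and did not raise in injured ones. Esm1, an endothelial proteoglycan gene, differed by 0.80 without injury (limma adjusted p = 0.00791) and by -0.21 with it (0.249). Its interaction was -1.01 (SE 0.157, adjusted p = 0.0689 with all arrays, 0.0172 without AKI 4 and 0.0482 without both AKI 4 and Control 3). Gja1, which encodes the gap junction protein connexin 43, differed by 0.93 and -0.14, and Ccn2, the connective tissue growth factor gene, by 0.98 and -0.36. Cd93, an endothelial surface receptor gene, differed by 1.38 and -0.17. The interactions of these 3 genes were -1.07, -1.35 and -1.55, with limma adjusted p from 0.0689 to 0.0898.

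A further group differed on deletion mainly in injured kidneys. Jun, a subunit of the AP-1 transcription factor, was at 7.88 to 8.02 in Control, 8.25 to 8.49 in VHL-KO, 10.08 to 10.63 in AKI and 8.89 to 9.71 in VHL-KO/AKI, with no overlap between neighbours. The deletion difference was 0.43 without injury (limma adjusted p = 0.534), and Jun fell by 0.92 on deletion with injury (0.00414), an interaction of -1.36 (adjusted p = 0.0791 with all arrays, 0.0206 without AKI 4). Dusp10, a phosphatase gene of stress-activated kinases, differed by 0.25 and -0.77. Shpk, which encodes sedoheptulokinase, ran the other way, with differences of -0.27 and 0.87 and an interaction of 1.15. Its level was 6.29 to 6.81 in AKI and 6.99 to 7.67 in VHL-KO/AKI, beside 7.70 to 7.83 in Control, so deleted injured kidneys lay between injured and Control kidneys.

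Immediate early genes as a list lay below 0. Of 18 such genes, which encode fast-acting transcription factors and their regulators, 18 had an interaction below 0 beside 11168 of all 19938 genes, with a list median of -0.90 beside -0.02. limma called 0 of the 18 interactions with all arrays (10 at an unadjusted p under 0.05, all lower). Without AKI 4 it called 3, all lower, beside 1.64% of all genes: Jun, Fosl2 and Nr4a1. With Control 3 left out as well it called 0. The deletion median of the list was 0.08 without injury, where 0 were called (5 at an unadjusted p under 0.05, all higher). It was -0.76 with injury, where 5 of 18 fell, beside 1.4% of all genes. Atf3, a stress transcription factor, differed by 0.57 and -1.50, and Egr1 by 0.08 and -1.30. The list mean was 6.58 to 6.70 in Control, 6.77 to 6.97 in VHL-KO, 7.86 to 8.93 in AKI and 7.30 to 7.98 in VHL-KO/AKI. The highest AKI value was that of AKI 4, and without it the median interaction was -0.85.

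Tubular injury markers, which mark damaged or dedifferentiated epithelium, had a median interaction of -0.76 over 16 genes, 13 of them below 0, with Myc the only one called. On deletion in injured kidneys 3 fell, beside 1.4% of all genes: Plaur, the urokinase receptor gene, by 1.22, and the keratins Krt18 and Krt8 by 0.90 and 0.51. Havcr1, which encodes kidney injury molecule 1, and the lipocalin gene Lcn2 were not called, with interactions of 0.24 (SE 0.913) and -0.89 (SE 0.337). Without AKI 4, 8 of the 16 markers were called lower on deletion in injured kidneys, beside 4.72% of all genes. AKI 4 had the lowest AKI mean of these markers (8.99), so leaving it out widened the fall by construction.

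Cytokine and chemokine genes had a median interaction of -0.45 over 19 genes, with 16 below 0. Il6 was at 4.21 to 4.40 in all uninjured arrays. It was 5.33, 5.86, 5.05, 4.81 and 6.16 in AKI and 4.43, 4.25, 4.34, 4.51 and 4.67 in VHL-KO/AKI, so the injured groups did not overlap and some deleted arrays lay within the uninjured range. The deletion difference with injury was -1.0 (limma adjusted p = 0.0147). Levels under 5.21 were treated as dim in an alternative analysis, and all VHL-KO/AKI and uninjured values lie under it, so the size of this difference is uncertain. The Il6 interaction was -1.02, with an adjusted p of 0.219 with all arrays, 0.0392 without AKI 4 and 0.0847 without AKI 4 and Control 3. Socs3, a feedback inhibitor of cytokine signalling, fell by 0.98 on deletion in injured kidneys, with an interaction of -0.99 that was not called. Neutrophil markers lay on the same side: 11 of 11 had an interaction below 0, with a median of -0.71, and the mean of the list was 4.58 to 4.66 in uninjured arrays, 5.06 to 5.93 in AKI and 4.66 to 5.23 in VHL-KO/AKI. The highest AKI mean was that of AKI 4, and without it the median interaction was -0.53. All uninjured, most VHL-KO/AKI and some AKI means also lie under 5.21, so the size of this difference is uncertain too. S100a8 and S100a9 fell on deletion in injured kidneys, by 0.55 and 1.07. The part of neutrophils in the cytokine values was not tested.

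Cell cycle and DNA replication genes had the larger deletion median in uninjured kidneys. Of 17 genes, 16 had an interaction below 0, 13 at an unadjusted p under 0.05, with a median of -0.45. limma called 0 with all arrays and 2 without AKI 4, Mki67 and Rrm2, each lower, beside 1.64% of all genes. With AKI 4 and Control 3 both left out it called 0. The deletion median was 0.34 without injury and -0.14 with it. The list mean was 5.88 to 6.06 in Control and 6.55, 6.25 and 6.30 in VHL-KO. VHL-KO 1, the highest of these, also had a lymphocyte marker mean of 5.99, against 5.01 to 5.28 in the other uninjured arrays, and the erythrocyte mean was higher in all VHL-KO arrays than in Control. Their part in the cell cycle values was not tested. Mki67, a marker of cycling cells, had 5.59, 6.05 and 5.83 in Control and 7.02, 6.28 and 6.30 in VHL-KO, and the groups did not overlap. It had 5.62, 5.60, 5.67, 5.88 and 5.59 in AKI and 5.31, 5.58, 5.51, 5.11 and 5.41 in VHL-KO/AKI. The cyclin gene Ccna2 differed on deletion by 1.05 without and -0.21 with injury.

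Endothelial markers were arranged alike. Of 10, 9 had an interaction below 0 (median -0.39), and the deletion median was 0.55 without injury and 0.18 with it. The mean of the list was 9.10 to 9.21 in Control and 9.57 to 9.85 in VHL-KO, without overlap, and 8.86 to 9.08 in AKI and 9.06 to 9.28 in VHL-KO/AKI, with overlap. limma called 0 of the interactions with all arrays (6 at an unadjusted p under 0.05, all lower), and Egfl7 without AKI 4, beside 1.64% of all genes called lower. Egfl7 was not called when Control 3 was left out as well. Among blood cell genes, the erythroid gene Alas2 and the platelet gene Ppbp, chosen after their values were seen, had large interactions that were not called with all arrays. Alas2, the erythroid enzyme of haem synthesis, was 7.47 to 8.07 in Control, 9.59 to 10.12 in VHL-KO, 6.94 to 7.96 in AKI and 7.25 to 8.11 in VHL-KO/AKI, higher in every VHL-KO array than in any other. Its deletion difference was 2.11 without injury (limma adjusted p = 0.00176) and 0.45 with it (0.257), an interaction of -1.66 (0.0939). Ppbp, a platelet chemokine gene, differed by 2.22 and -0.16, with an interaction of -2.39 (0.0939). The other measured erythrocyte markers did not follow Alas2: the interaction was 0.17 for Slc4a1 and -0.08 for Epb42, and the median of the 3 measured of 8 was -0.08. Slc4a1 is also counted among the collecting duct markers, so its value cannot be assigned to erythrocytes alone. The mean level of the 3 markers was 6.91 to 7.13 in Control, 7.94 to 8.13 in VHL-KO, 5.88 to 6.54 in AKI and 6.37 to 6.77 in VHL-KO/AKI. The part of blood cells in the Alas2, Ppbp and Hmox1 values was not tested.

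**Figure D4:**
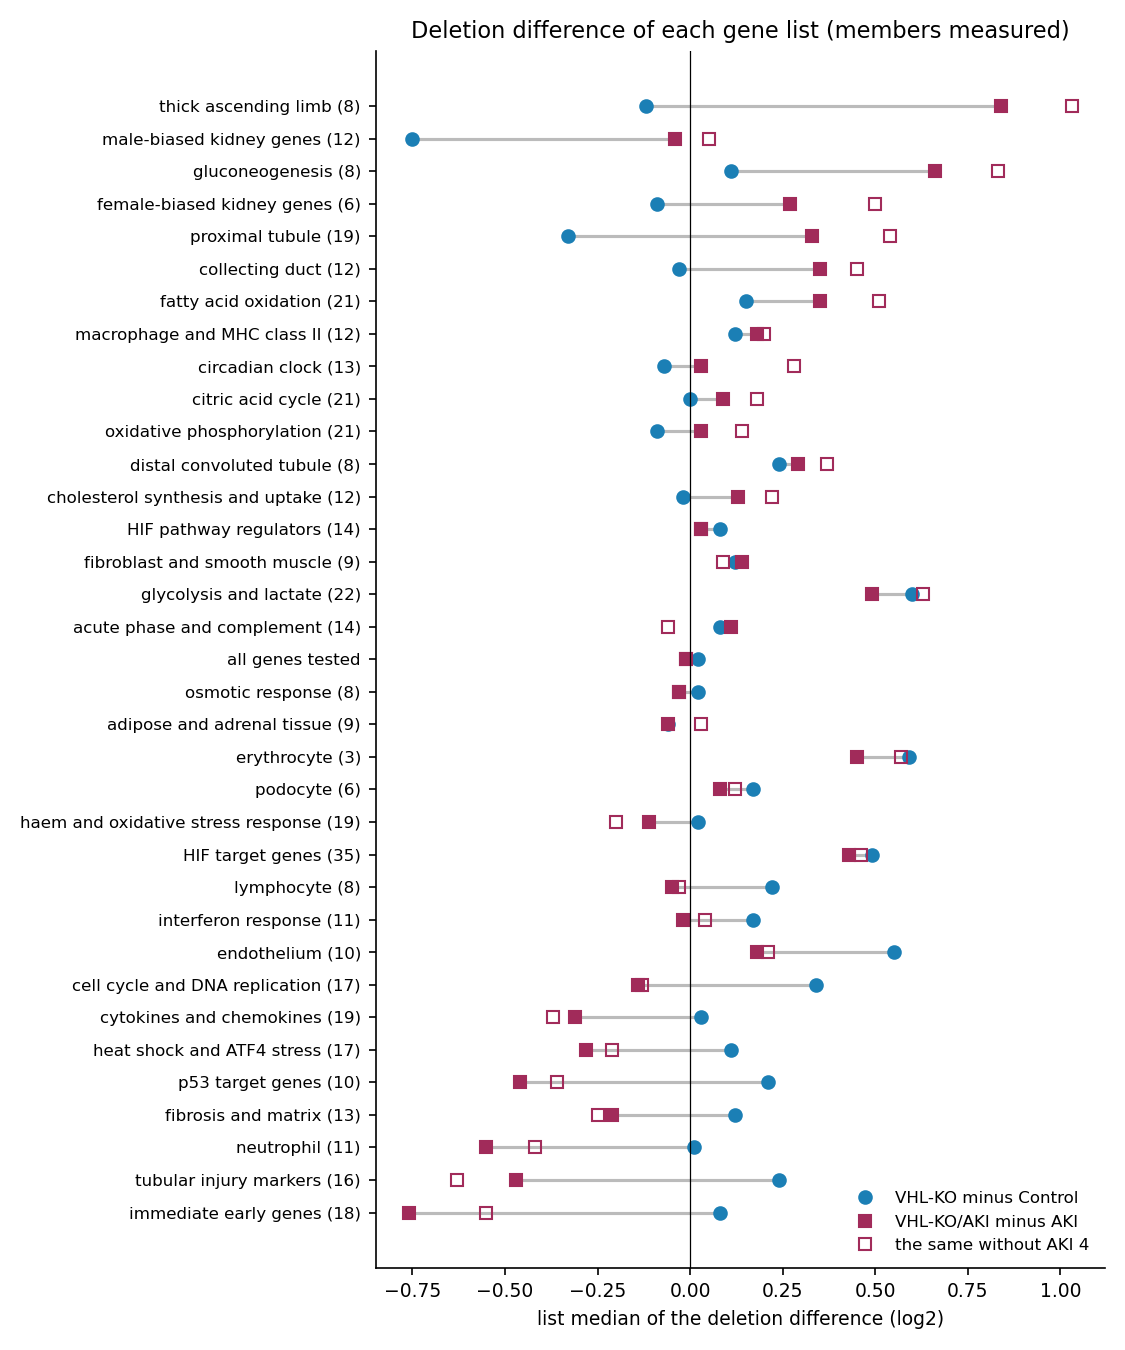
Median deletion difference (log2, horizontal axis) of each gene list other than the sex chromosome genes (vertical axis, number of members measured in brackets) without injury (circles) and with injury (squares; open squares without AKI 4). The lists are ordered by median interaction, from the thick ascending limb (1.04) to immediate early genes (-0.90), and the HIF target and glycolysis lists have both medians above 0.

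Transport and metabolic genes of the tubule formed the opposite side. The thick ascending limb, which reabsorbs salt without water, had the highest list median. All 8 of its measured markers had an interaction above 0 (median 1.04, 4 at an unadjusted p under 0.05). limma called 0 with all arrays and 1 without AKI 4, Cldn10, beside 1.47% of all genes called higher. With AKI 4 and Control 3 both left out, Cldn10 was not called. The deletion median was -0.12 without injury and 0.84 with it. Cldn10, a claudin of the paracellular cation path, was 11.45 to 11.60 in Control and 11.22 to 11.57 in VHL-KO. It was 9.35, 9.74, 9.26, 10.83 and 9.14 in AKI and 11.33, 10.99, 11.28, 10.97 and 10.26 in VHL-KO/AKI, and AKI 4 was the AKI array that overlapped the deleted ones. Its deletion difference with injury was 1.30 (limma adjusted p = 0.0206). The potassium channel gene Kcnj1 differed on deletion by 0.15 without and 1.28 with injury (limma adjusted p = 0.950 and 0.0045), and its interaction was 1.14 (0.196).

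Proximal tubule markers had 19 of 19 interactions above 0, with a median of 0.53. The deletion median was -0.33 without injury and 0.33 with it, and limma called no marker in either comparison or in the interaction with all arrays (0 genes, with 3 interactions at an unadjusted p under 0.05). Without AKI 4, 5 interactions were called higher, among them Slc13a3, Aqp1 and Slc22a6, and 0 lower, beside 1.47% and 1.64% of all genes. In that fit 8 of the 19 rose on deletion in injured kidneys, beside 7.23% of all genes, and 1 fell in uninjured ones. AKI 4 had the highest AKI mean of this list (11.92), so leaving it out widened that rise by construction. With Control 3 left out as well, limma called 0 interactions of this list. Aqp1, a water channel gene, was 11.08 to 11.44 in Control and 10.85 to 10.91 in VHL-KO. It was 8.70, 8.93, 9.34, 10.76 and 8.69 in AKI and 10.42, 9.94, 10.36, 9.74 and 9.23 in VHL-KO/AKI. Gluconeogenesis genes, which the proximal tubule uses to make glucose, had a median interaction of 0.67 over 8 genes. Slc37a4, the glucose 6-phosphate transporter gene, had 9.03, 9.01, 9.62, 11.17 and 8.90 in AKI and 11.12, 10.85, 11.25, 10.60 and 10.46 in VHL-KO/AKI. Its deletion difference was 0.24 without injury and 1.31 with it (limma adjusted p = 0.0473). Collecting duct markers had 12 of 12 interactions above 0, with a median of 0.46 and 0 called with all arrays (3 at an unadjusted p under 0.05). Distal convoluted tubule markers had a median of 0.08, which was 0.25 without AKI 4 and 0.32 without Control 3 as well.

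**Figure D5:**
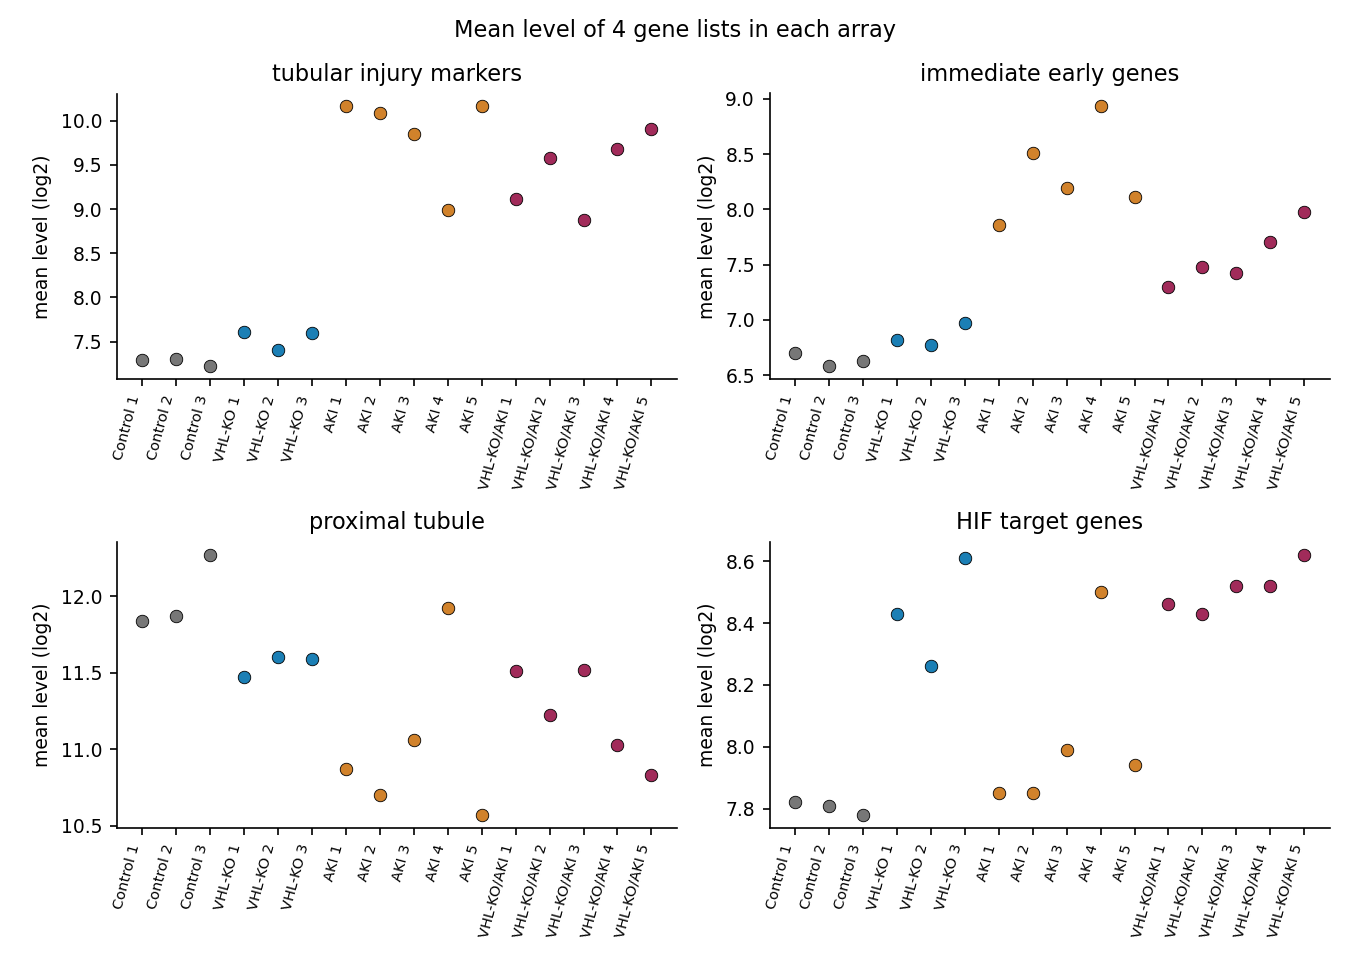
Mean level (log2, vertical axis) of the tubular injury, immediate early, proximal tubule and HIF target lists in each array (horizontal axis), coloured by group, 1 point per array. AKI 4 has a lower injury mean (8.99) and a higher HIF mean (8.50) than the other 4 AKI arrays.

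Male-biased kidney genes had 12 of 12 interactions above 0 with a median of 0.88, and this value moved with Control 3. It was 0.18 without that array, whose mean of the list was 11.45, and 0.10 with a sex-linked covariate. The proximal tubule median was 0.51 without Control 3 and 0.82 without AKI 4, and the immediate early median was -0.97 without Control 3, so these medians kept their sign in both cases.

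Among the 293 genes called higher without AKI 4, 244 had passed the deletion test in injured kidneys alone, 22 in uninjured kidneys alone, 7 in both and 20 in neither. In that fit, deletion was called in 1.18% of all genes in uninjured kidneys (0.968% higher and 0.211% lower) and in 12% in injured kidneys (7.23% higher). Among the 327 called lower, the counts were 199, 55, 8 and 65. These genes were selected for deletion differences that lie far apart, and the injured groups had more arrays. The counts therefore follow in part from the selection and do not show where deletion acts more. The 12 largest positive interactions without AKI 4 belonged to Sectm1b, Car9, Fmo5, Hykk, Cyp2c23, Akr1c18, Slc13a2, Akr1c21, Tmem174, Fabp3, Gys2 and Cmbl. They did not all follow the same pattern. The cytochrome P450 gene Cyp2c23, the steroid-reducing enzyme gene Akr1c21 and the liver-type glycogen synthase gene Gys2 were called lower on deletion in uninjured kidneys in that fit, by 2.18, 2.03 and 1.70, and their differences in injured kidneys were -0.10, -0.09 and 0.24. The other 9 were called higher on deletion in injured kidneys. Sectm1b among them was also lower in every VHL-KO array (8.74 to 8.95) than in any Control array (9.82 to 10.42). Further examples of the 9 are Slc13a2, a dicarboxylate carrier gene, and Akr1c18, a steroid-reducing enzyme gene of the female-biased list. Slc13a2 was 9.69 to 9.84 in Control and 9.02 to 9.42 in VHL-KO. It was 6.84, 7.15, 7.21, 9.02 and 6.71 in AKI and 8.98, 8.37, 9.14, 8.06 and 7.46 in VHL-KO/AKI, and with AKI 4 left out the injured groups no longer overlapped. Akr1c18 was 10.36 to 11.31 in Control and 10.38 to 10.91 in VHL-KO. It was 6.22, 6.09, 6.32, 7.38 and 6.21 in AKI and 8.87, 7.55, 8.15, 8.04 and 7.37 in VHL-KO/AKI, with an interaction of 1.79 (limma adjusted p = 0.158 with all arrays, 0.0263 without AKI 4).

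The largest negative interactions without AKI 4 included Hmox1, Gprc5a, Ppbp, Myc, the actin cross-linker Flnc, the cell cycle inhibitor Sfn and the IL-6 family cytokine Clcf1. Gprc5a, an orphan receptor gene, was 6.36 to 7.25 in all uninjured arrays, 10.24, 10.02, 10.48, 10.03 and 10.67 in AKI and 7.87, 8.37, 7.35, 8.95 and 9.49 in VHL-KO/AKI. The injured groups did not overlap, and its interaction was -2.28 (limma adjusted p = 0.116 with all arrays, 0.0373 without AKI 4, 0.0930 without AKI 4 and Control 3). Flnc was 8.43, 7.42, 6.93, 5.39 and 8.70 in AKI, with AKI 4 the lowest, and 5.75 to 6.35 in VHL-KO/AKI. Its interaction was -1.37 (adjusted p = 0.488) with all arrays and -1.87 (0.0422) without AKI 4. Of the 293 and 327 genes called without AKI 4, 11 and 11 were also called when Control 3 was left out as well.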

How the data were processed

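The authors' deposited table gives log2 probe set levels of 16 arrays, with array medians of 5.92 to 6.03. Per the submitters' processing notes, Partek 6.4 and RMA were used; settings and build are not given in these sources. Of 35556 rows, 21789 carry 1 symbol, 1621 several and 12146 none. For 999 genes with several single-symbol rows, the row of highest mean was used.

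Groups came from the titles. limma 3.58.1 in R 4.3.3 fitted 1 mean per group (12 residual and 2.83 prior degrees of freedom), and the interaction was a contrast of all 4 means, 2-sided, with Benjamini-Hochberg adjustment over 19938 genes. The median SE of the interaction was 0.143. The method was tested on simulated data. The labels call the samples biological replicates. Numbers did not pair them: of 20 same-number pairs, 3 had a correlation of deviations over 0.1.

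The members and the 35 gene lists (466 of 513 members measured) were chosen with earlier results of these data known. List members were matched by symbol or, where that is no current symbol, by an older one. Lists are described by counts and medians. Lists not described in the report are given under other observations.

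Named genes were Vhl, called genes by size of interaction, up to 3 called members per list, genes called in both comparisons with the most equal or opposite differences, leading HIF and glycolysis genes, and sex chromosome genes. Genes named from the analysis without AKI 4, by smallest unadjusted p, or as examples of a list were chosen after their values were seen. Alternatives replaced the row rule, scaling, variance model, array weights, sex-linked covariate, scale and arrays used.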

Additional observations from a re-analysis of the deposited data

Results flagged for a closer look

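Dixon's test for a single outlying array was applied to the groups of 5 arrays, over named genes and list means, in 236 tests. A gap to the nearest array over 0.71 of the group's range is given here, and chance gives about 1 such group in 20 where genes were not chosen for it. Of 31 such groups, 25 concerned AKI 4. The 14 genes among these were named because their interaction was called without AKI 4, so neither that rate nor their number bears on whether AKI 4 stands apart.

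AKI 4 was the highest AKI array for Akr1c18 (gap 0.823 of the range), Calb1 (0.789), Ciart (0.887), Cmbl (0.825), Fmo5 (0.758), Fosl2 (0.833), Gys2 (0.803), Hadh (0.730), Hykk (0.761), Idh2 (0.822) and Mki67 (0.722). It was also the highest for the dicarboxylate carriers Slc13a2 (0.783) and Slc13a3 (0.837) and for Tmem174 (0.727). Among list means it was highest for HIF targets (0.792), glycolysis (0.753), the citric acid cycle (0.938), oxidative phosphorylation (0.901), cholesterol synthesis (0.796), the circadian clock (0.784), the thick ascending limb (0.769), the distal convoluted tubule (0.848) and male-biased genes (0.752). It was lowest for tubular injury markers (0.735) and for the haem and oxidative stress response (0.799).

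The other 6 groups involved other arrays. VHL-KO/AKI 3 was lowest for Alas2 (0.896) and Rrm2 (0.767) and highest for the fatty acid oxidation mean (0.759). VHL-KO/AKI 2 was lowest for Abcb10 (0.799), VHL-KO/AKI 1 for the adipose and adrenal mean (0.811), and AKI 2 for P4ha1 (0.902).

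The deletion effect differed between injured and uninjured kidneys by the limma interaction for Hmox1 (-3.29) and Myc (-2.02).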

How the results depend on the processing

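Called interactions numbered 2 with all arrays. They numbered 0 with every row tested, median centring, quantile or cyclic loess scaling, the sex-linked covariate and the linear scale. The count was 1 with the replicate number as a block, 885 with array weights, 22 without Control 3 and AKI 4, and 1947 without AKI 4 and VHL-KO/AKI 5, which was chosen after seeing the data. Leaving out 1 array gave 0 to 620. Under the block the limma adjusted p was 0.0275 for Hmox1 and 0.0673 for Myc. Calls on deletion in uninjured kidneys (105) became 64 with centring, 319 with weights, 65 with the block, 18 with the covariate, 289 without AKI 4 and VHL-KO/AKI 5, 39 at 2-fold or more, and 34 to 235 with 1 array left out. Calls in injured kidneys (774) became 2868 with weights, 2196 without Control 3 and AKI 4, 3495 without AKI 4 and VHL-KO/AKI 5, 91 at 2-fold, and 229 to 2384 with 1 array left out. Genes called in both (49) became 117 with weights, 11 with the covariate, 128 without AKI 4 and VHL-KO/AKI 5, 17 at 2-fold, and 18 to 97 with 1 array left out. The causes were not tested.

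The following interactions, none called, changed sign. With all arrays Uty (1.33), Eif2s3y (0.67), Egln3 (0.55), Pdk1 (0.51) and Pfkl (0.26) were not near 0, and the others were. Under centring they were 0.05 for Aldoart1, 0.01 for Hunk, 0.04 for Mgarp, 0.06 for Pfkp and 0.07 for Pgk1. Under quantile scaling they were 0.05 for Aldoart1 and Mgarp and 0.06 for Pfkp, and under loess 0.08 for Aldoart1, 0.04 for Hunk, 0.01 for Mgarp and 0.06 for Pfkp. With weights they were -0.09 for Lrp5 and 0.07 for Pfkp. With the covariate they were -0.01 for Egln1, -0.65 for Eif2s3y, 0.08 for Mgarp, 0.26 for Pfkp, 0.00 for Pgk1 and -0.20 for Uty. Without Control 3 and AKI 4 they were -0.25 for Eif2s3y, 0.00 for Mgarp, 0.33 for Pfkp and 0.05 for Pgk1, and without AKI 4 and VHL-KO/AKI 5 0.20 for Pfkp and 0.00 for Pgk1. On the linear scale, as differences of linear levels, they were 2.01 for Aldoart1, -106 for Egln1, -20.8 for Egln3, -41.3 for Eif2s3y, -320 for Ldha, -74.4 for Lrp5, -128 for Pdk1, -346 for Pfkl and 106 for Pfkp. With 1 array left out the ranges were -0.09 to 0.03 for Aldoart1, -0.03 to 0.09 for Egln1, -0.23 to 1.20 for Eif2s3y, -0.27 to 0.18 for Hunk, -0.04 to 0.13 for Ldha, -0.12 to 0.13 for Lrp5, -0.38 to 0.28 for Mgarp, -0.19 to 0.19 for Pfkp and -0.06 to 0.06 for Pgk1.

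The number of arrays limits precision.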

Other observations

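Fibrosis and matrix genes had a median interaction of -0.56 over 13 measured of 15, with 10 below 0 and 0 called by limma (7 at an unadjusted p under 0.05, all lower). Without AKI 4, 4 were called lower, beside 1.64% of all genes: Ccn1, Ccn2, Tgfb1 and Acta2. Leaving out Control 3 as well gave 0 called. Tgfb1, the growth factor gene, had a deletion difference of 0.48 without injury and -0.15 with it. Tagln, a smooth muscle actin-binding protein gene, had 0.40 and -0.93, while the fibroblast and smooth muscle list as a whole had a median interaction of -0.00.

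Stress lists lay below 0 as well. The median interaction was -0.48 over 17 heat shock and ATF4 genes, -0.50 over 10 p53 targets and -0.16 over 19 haem and oxidative stress genes, of which Hmox1 alone was called. Txnrd1, a thioredoxin reductase gene, had deletion differences of 0.19 without and -0.90 with injury, and its interaction was called without AKI 4 (-1.13, limma adjusted p = 0.0469). It was not called when Control 3 was left out as well.

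Mitochondrial fuel lists lay slightly above 0, with medians of 0.23 for fatty acid oxidation, 0.11 for the citric acid cycle and 0.11 for oxidative phosphorylation. Without AKI 4 these were 0.39, 0.24 and 0.24. Circadian genes had a median of 0.14, and 0.39 without AKI 4, where Ciart, Tef and Per3 were called higher, beside 1.47% of all genes. Leaving out Control 3 as well gave 0 called circadian genes. The labels used here give no hour of killing.

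Female-biased genes had a median of 0.66 and the 4 measured sex chromosome genes one of 0.65, which was -0.05 without Control 3. The median was 0.19 for macrophage and MHC class II genes, 0.04 for cholesterol synthesis, 0.00 for HIF pathway regulators, -0.02 for acute phase and for osmotic response genes, -0.03 for adipose and adrenal genes, -0.11 for podocyte, -0.23 for lymphocyte and -0.25 for interferon response genes, beside -0.02 over all genes.

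The largest differences called in both deletion comparisons belonged to Vmn1r32, a gene named as a vomeronasal receptor by a platform annotation that could not be checked for this probe set, with 6.14 without injury and 5.02 with it. Among 13767 table rows without a single symbol, 3 interactions were called with all arrays and 18 without AKI 4.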
